A study of Mus musculus with 9 samples.

Results

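The hindbrain rhombomere identity genes examined here are Hoxa2, Hoxb1, Hoxb2, Hoxb3 and Egr2, 5 of the 45706 gene identifiers in the count table. They were chosen by symbol, through the GENCODE annotation of the mouse GRCm38 (mm10) genome, and not by their values. All 5 were found and all 5 passed the filter on low counts.

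Rhombomeres are the transient segments of the embryonic hindbrain, each of which gives rise to its own set of neurons and cranial neural crest. Their identities are set by Hox genes, homeobox transcription factors whose expression limits along the neural tube follow their order in the clusters, and by Egr2 (Krox20), a zinc-finger factor of the third and the fifth rhombomere that activates Hoxa2 and Hoxb2. Hoxa2 has the most anterior limit of the Hox genes, Hoxb1 marks the fourth rhombomere, Hoxb2 begins at the third rhombomere and Hoxb3 is strongest in the fifth. Retinoic acid and fibroblast growth factors position these domains in the young neural tube.

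RNA was sequenced from untreated C57BL6/J mouse central nervous system, as whole tissue, with 3 libraries from each of 3 stages, the embryonic days named E9.5 and E14.5 and the adult at P60. At E9.5 the tissue was the head, severed caudal to the fourth ventricle and anterior to the forelegs, with surplus tissue outside the neuroectoderm trimmed away, so the cut ran close to the hindbrain in which these genes act. At E14.5 it was the brain without meninges, and at P60 the adult brain, taken from the skull of anaesthetised mice after perfusion with saline. Dissection therefore changed with stage, and the part of each in a difference between stages cannot be told apart. In whole tissue, fewer cells of a type and less RNA per cell also cannot be told apart. The labels do not say that the libraries of a stage are separate animals, and the spread that p-values rest on may be technical.

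The libraries held 30481975 to 35619093 counts each. The forebrain and midbrain references (among them Otx2, Six3, Emx2, En1 and En2) had reads in all 9 libraries, 6 of 6 genes each. Of the 5 cerebellum markers at P60 (the cerebellum derives from the anterior hindbrain), Gabra6 of granule cells had 3, 0 and 0 reads and Pcp2 of Purkinje cells 4, 12 and 0 in the 3 libraries. Calb1 and Cbln1, which other brain regions also express, had 135.2 to 155.4 and 36.4 to 50.7 CPM (counts per 1000000 counts of the library), and Cbln3 0.140 to 0.639 CPM. Of the 3 tested, 1 was higher (Calb1) and 0 lower at P60 than at E14.5. The brainstem neuron markers summed to 3.09 to 5.43 CPM there, mostly Tph2 of serotonin neurons (2.54 to 3.64 CPM), with Lbx1 at 0. Libraries stood apart at both embryonic stages. At E9.5 the 7 heart and muscle markers summed to 304.8 CPM in library 1, against 5.94 and 6.37 in libraries 2 and 3. At E14.5 the 10 brainstem neuron markers summed to 8.15 CPM in library 1, against 41.9 and 32.7 in libraries 2 and 3. Both libraries bear on the values below.

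The members lie at 3 loci of GRCm38. Hoxb3 (ENSMUSG00000048763, chr11:96323326-96347930), Hoxb2 (ENSMUSG00000075588, chr11:96350525-96354012) and Hoxb1 (ENSMUSG00000018973, chr11:96365752-96368256) follow each other on the plus strand of the HoxB cluster. Hoxa2 (ENSMUSG00000014704, chr6:52162417-52164831) lies on the minus strand of the HoxA cluster, and Egr2 (ENSMUSG00000037868, chr10:67535475-67542188) on the plus strand of chromosome 10. The antisense gene Hoxb3os shares 2250 exonic bases with Hoxb3, 52.9% of the exonic bases of Hoxb3, and 953 bases with Hoxb2, 27.3% of that gene. The library kit does not mark strand, so reads in these shared bases could not be assigned to one strand or the other.

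Start-site sequences are shown for 3 members, which differ in the searched patterns they match. Only these had a window in the RefSeq table of promoter windows (GRCm38.p6, 250 bases before to 50 after the annotated start). The Hoxb1 window is chr11:96365508-96365807 (plus strand), the Hoxa2 window chr6:52164782-52165081 (minus strand) and the Egr2 window, 1 of 5 listed for that gene, chr10:67537619-67537918 (plus strand). Each is written 5′ to 3′ along its gene, with motif matches in capitals.
Hoxb1: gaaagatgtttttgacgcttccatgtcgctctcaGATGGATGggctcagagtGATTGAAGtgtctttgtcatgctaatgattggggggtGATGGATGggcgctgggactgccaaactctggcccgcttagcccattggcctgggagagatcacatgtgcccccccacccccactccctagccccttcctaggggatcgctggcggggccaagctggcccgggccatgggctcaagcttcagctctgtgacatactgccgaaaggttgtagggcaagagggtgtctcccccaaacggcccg
Hoxa2: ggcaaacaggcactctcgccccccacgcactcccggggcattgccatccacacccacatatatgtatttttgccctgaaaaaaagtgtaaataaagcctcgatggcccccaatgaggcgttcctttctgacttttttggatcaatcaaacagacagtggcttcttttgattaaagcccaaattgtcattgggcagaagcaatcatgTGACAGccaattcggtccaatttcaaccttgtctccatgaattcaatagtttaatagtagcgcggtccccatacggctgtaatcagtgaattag
Egr2: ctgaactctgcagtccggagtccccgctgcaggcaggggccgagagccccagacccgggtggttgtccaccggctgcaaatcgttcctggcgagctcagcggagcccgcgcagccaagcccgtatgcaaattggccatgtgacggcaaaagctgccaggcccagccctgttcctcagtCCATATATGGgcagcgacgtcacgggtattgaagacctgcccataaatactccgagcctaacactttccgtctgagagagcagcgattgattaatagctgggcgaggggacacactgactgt

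The capitals in Hoxb1 are 3 matches of GATNGANG, on the gene's own strand at -216 to -209, -198 to -191 and -161 to -154 from the start. This pattern was chosen with the Hoxb1 repeats in view, so the shares below depend on that choice. It does not cover every form of the sites bound jointly by Hox and Pbx proteins. Repeats of this kind before Hoxb1 are described as the element through which the gene maintains itself in the fourth rhombomere. Of 32851 windows of this length, searched on both strands, 8.66% held at least 1 match and 0.07% held 3 or more. The Hoxa2 window held no GATNGANG match, though its stretch gatcaatc, read on the other strand, misses the pattern only at the last letter. The Hoxa2 capitals are a TGACAG, the core bound by Meis and Pknox proteins, at -44 to -39, a sequence found in 19.2% of windows. The capitals in Egr2 are a CArG box, the kind of site bound by serum response factor, at -72 to -63, found in 1.63% of windows. This window was picked for its match: 4 of the 5 windows of Egr2 held a CArG box. Those starting at 67537619, 67537620 and 67537680 overlap and hold the same box, and the one starting at 67537316 holds another. The most upstream window (chr10:67535249-67535548) held none, nor did the windows of any of the 7 listed immediate early genes that the table matched. Each of those 7 had 1 window, against 5 for Egr2, and Egr1, Egr3 and Arc had no window. Whether the box is particular to Egr2 therefore cannot be read from this search. The 3 motifs shared no bases in these windows, and they were chosen with the sequences in view, so a match describes the letters and is neither a tested binding site nor a cause of the values below.

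Hoxa2, which specifies the second rhombomere and the crest of the second pharyngeal arch, was the most evenly detected member at E9.5. Its levels there were 7.19, 2.79 and 6.49 CPM in libraries 1, 2 and 3 (220, 85 and 203 reads). At E14.5 library 1 had no read of Hoxa2, while libraries 2 and 3 had 1.13 and 0.311 CPM (38 and 10 reads). At P60 no read was counted in any of the 3 libraries. Every E9.5 library was above every E14.5 library, and the mean fell from 5.49 ± 2.37 CPM (SD, n = 3) to 0.480 ± 0.583 CPM. The fitted log2 change was -3.59 ± 0.82 (SE; edgeR quasi-likelihood test, adjusted p = 0.0043 over 17971 genes). Bounds were set with 3 counts over the 3 pooled P60 libraries in place of 0. By these, Hoxa2 at P60 was at least 16.6-fold lower than at E14.5 and at least 187.5-fold lower than at E9.5. Both falls passed the test (edgeR adjusted p = 0.017 and 0.00023). The first rested on library 2 of E14.5, without which the bound was 5.27-fold and the fitted change moved from -6.91 to -5.28. That change was still called, but at the threshold (edgeR adjusted p = 0.05 after rounding). With all libraries, the call was lost with no filter (edgeR adjusted p = 0.07) and with the replicate number as a block (0.064). Without library 2 of E14.5 the change between E9.5 and E14.5 was -5.2.

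Hoxb1, the marker of the fourth rhombomere, was detected at E9.5 and at neither later stage. The 3 E9.5 libraries had 9.97, 1.35 and 3.90 CPM (305, 41 and 122 reads), a 7.41-fold range. None of the 6 later libraries held a read, and a count of 0 allows up to 3 counts, 0.0842 to 0.0959 CPM in a single library. Over the pooled libraries of a stage, as used for the bounds, 3 counts are 0.0305 CPM at E14.5 and 0.0293 CPM at P60. Between E9.5 (5.07 ± 4.43 CPM, SD, n = 3) and E14.5 the gene was at least 166.3-fold lower, and the test called the fall (edgeR adjusted p = 0.00082). It was at least 172.8-fold lower at P60 than at E9.5 (edgeR adjusted p = 0.00052). Without library 1 of E9.5 these bounds were 86.6-fold and 89.98-fold. No fold was computed between E14.5 and P60, where both stages were at 0. Libraries 2 and 3 of E14.5, which had no read of Hoxb1, did have reads of Hoxa2, Hoxb2 and Hoxb3.

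Hoxb2, a target of both Egr2 and Hoxb1 in the hindbrain, had 3.89, 0.197 and 1.503 CPM at E9.5 (119, 6 and 47 reads), a 19.8-fold range and the widest of the 5 genes. At E14.5 it had no read in library 1, 0.505 CPM in library 2 and 0.0621 CPM in library 3 (0, 17 and 2 reads). The stages overlapped, since the second E9.5 library lay below the second E14.5 library. The fitted change was -3.36 ± 1.04 on the log2 scale (SE; edgeR adjusted p = 0.015), from 1.86 ± 1.87 to 0.189 ± 0.275 CPM (SD, n = 3). This call depended on single libraries, with -2.19 and an edgeR adjusted p of 0.092 without library 1 of E9.5, and -2.93 and 0.055 without library 3 of E14.5, while without library 2 of E14.5 it was -5.82 and still called. At P60 there was 1 read, in library 3. The ratio of E9.5 to P60 over the pooled reads was 190.5 (95% exact counting interval 33.7 to 7567), and that fall was called (log2 change -7.08, edgeR adjusted p = 0.0017, and -5.94, still called, without library 1 of E9.5), whereas E14.5 over P60 was 19.8 (3.14 to 820.4) and was not (edgeR adjusted p = 0.14).

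Hoxb3, which acts in the fifth and more caudal rhombomeres, had 1.47, 0.131 and 0.448 CPM at E9.5 (45, 4 and 14 reads). At E14.5 it had 1.01 CPM in library 2, 0.0311 CPM in library 3 and no read in library 1 (34, 1 and 0 reads). The stages overlapped, the highest E14.5 library lying above libraries 2 and 3 of E9.5. The difference between these stages did not pass the test, at -1.05 ± 1.17 on the log2 scale (SE; edgeR adjusted p = 0.45). It became -5.22 (edgeR adjusted p = 0.017) without library 2 of E14.5 and 0.21 (0.91) without library 1 of E9.5. No read was counted at P60, at least 23.3-fold lower than E9.5, which was called (edgeR adjusted p = 0.022), and at least 12.1-fold lower than E14.5, which was not (0.067). The call against E9.5 was lost without library 1 of E9.5 (edgeR adjusted p = 0.078, bound 9.94-fold) or library 2 of P60 (0.056). The difference from E14.5 passed without library 1 or 3 of that stage (edgeR adjusted p = 0.034 and 0.039) and was -2.26 (0.5) without library 2, which held 34 of its 35 reads and without which no bound can be given.

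Egr2 was the only member with reads in all 9 libraries and the only one that was higher at P60 than at E14.5. At E9.5 it had 2.71, 0.230 and 0.448 CPM (83, 7 and 14 reads), and at E14.5 0.277, 0.683 and 0.404 CPM (9, 23 and 13 reads). At P60 it had 1.47, 2.12 and 1.74 CPM (46, 75 and 62 reads), above all 3 E14.5 libraries and below library 1 of E9.5. The rise from 0.454 ± 0.208 to 1.78 ± 0.327 CPM (SD, n = 3) gave a fitted log2 change of 2.1 ± 0.74 (SE; edgeR adjusted p = 0.023). That call was lost without library 1 (1.85, edgeR adjusted p = 0.069) or library 3 (2.0, 0.064) of E14.5, or library 2 of P60 (1.95, 0.064). The change between the embryonic stages was -1.4 ± 0.75 (SE; edgeR adjusted p = 0.12). It became 0.36 (edgeR adjusted p = 0.55) without library 1 of E9.5 and -1.89 (0.029) without library 2. P60 against E9.5 gave 0.69 ± 0.68 (SE; edgeR adjusted p = 0.36), and 2.43 (0.0006) without library 1 of E9.5.

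**Figure D1:**
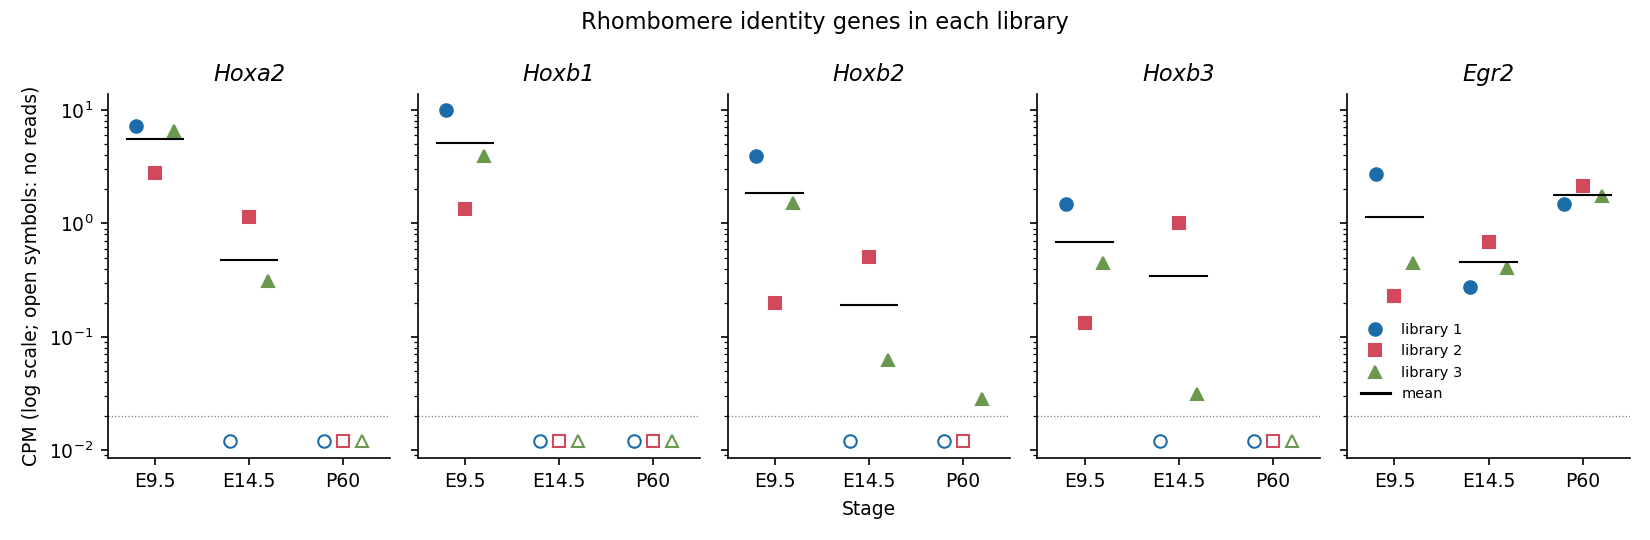
CPM of each member (log axis) in the 3 libraries of E9.5, E14.5 and P60, with the mean as a black line and libraries without a read as open symbols under the dotted line. Library 1 is the highest for all 5 genes in the E9.5 panels and the lowest for the 4 detected at E14.5. At P60 the 4 Hox genes hold 1 read in total while Egr2 lies between 1.47 and 2.12 CPM.

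Across the members, 3 were lower and 0 higher at E14.5 than at E9.5, where 64.6% of all 17971 genes tested were called, 30.7% lower and 34% higher. From E14.5 to P60, 1 was lower (Hoxa2) and 1 higher (Egr2), against 39.4% and 36.7% of all genes (76.1% in either direction). From E9.5 to P60, 4 were lower and 0 higher, against 40.6% and 42% (82.6% in either direction). A call was thus common in this table, and the share of members called is not a result about them. The median log2 change of the members was -3.36, -3.72 and -7.5 in these 3 comparisons, beside 0.03, -0.06 and 0.05 over all genes tested. The first and second medians are the values of Hoxb2, which had 1 read at P60 and was not called between E14.5 and P60. The third is the value of Hoxb3, which had no read at P60. Fitted changes of genes with no read in a stage depend on the constant added to counts, so their size is carried by the bounds above. The 3 comparisons share libraries in pairs and are not independent of each other.

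**Figure D2:**
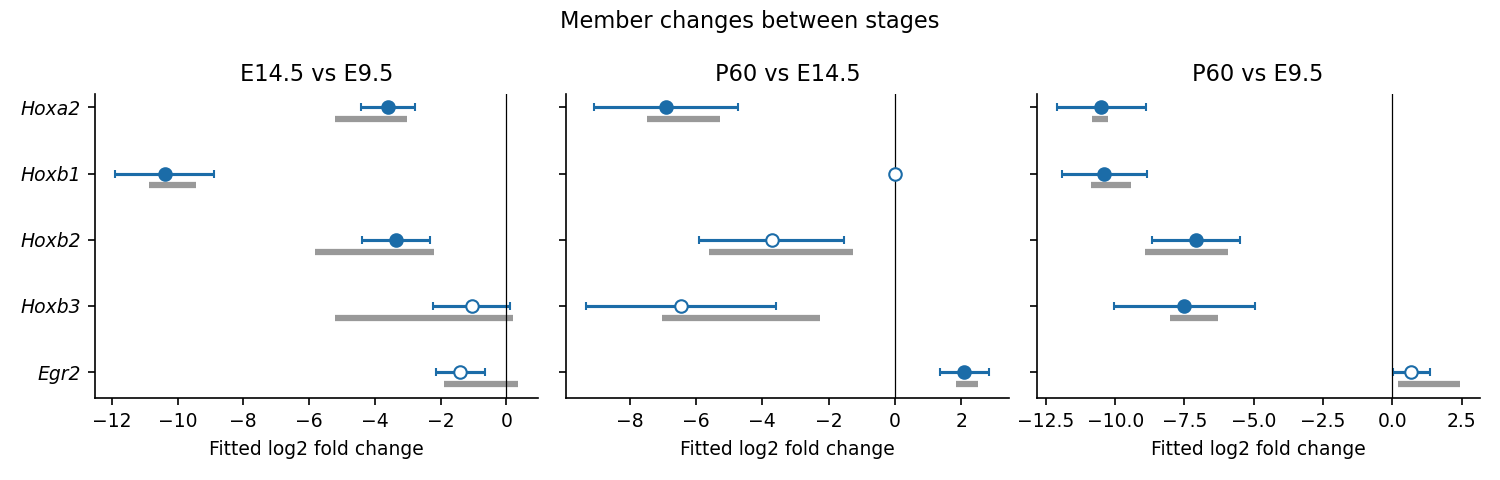
Fitted log2 fold change of each member for the 3 stage comparisons, with the SE as a thin bar, filled points where the edgeR adjusted p was under 0.05, and a grey bar for the lowest and highest value when each library was left out in turn. The grey bars of Hoxb3 and Egr2 cross 0 for E14.5 against E9.5 (-5.22 to 0.21 and -1.89 to 0.36), while those of Hoxa2, Hoxb1 and Hoxb2 stay below 0.

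Set per length of merged exons (RPKM, CPM divided by kilobases), the order of levels at E9.5 was Hoxa2 (3.09 ± 1.33 RPKM, SD, n = 3), Hoxb1 (2.19 ± 1.91), Hoxb2 (0.534 ± 0.537), Egr2 (0.333 ± 0.405) and Hoxb3 (0.161 ± 0.165). No neighbours in this order differed by more than the larger of their SDs. In each of the 3 libraries Hoxa2 and Hoxb1 had the 2 highest values and Hoxb3 the lowest. At E14.5 the order was Hoxa2 (0.270 ± 0.328 RPKM), Egr2 (0.134 ± 0.0611), Hoxb3 (0.0816 ± 0.135) and Hoxb2 (0.0542 ± 0.0789), again with no neighbours apart by more than the larger SD, and Hoxb1 at 0. At P60 Egr2 stood at 0.523 ± 0.0963 RPKM and the Hox members at or near 0.

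Ratios within a library, which need no scaling between libraries, were tested over the 3 stages. The log2 ratio of Egr2 to Hoxb2, a gene and its described target, was -0.52, 0.21 and -1.71 for E9.5, then 4.25, 0.43 and 2.43 for E14.5, and 6.54, 7.24 and 5.38 for P60. The stages did not overlap, although in library 1 of E14.5 and libraries 1 and 2 of P60 Hoxb2 had no read and the 0.5 added to counts set the ratio. The exact permutation test over all assignments of libraries to stages gave its smallest possible p, 0.003571 (0.01429 adjusted over 4 ratios). The adjusted p of this exact test was 0.05714 without library 1 of P60 and 0.1 without library 2. The mean log2 ratio of Hoxb1 to Hoxb2 was 1.8 ± 0.76 at E9.5 and -2.48 ± 2.57 at E14.5 (SD, n = 3; exact permutation p = 0.04643, adjusted 0.09048). It had an adjusted p of 0.01429 in the same exact permutation test without library 1 of E14.5, in which neither gene had a read. The ratios Hoxa2 to Hoxb2 and Hoxb3 to Hoxb2 did not pass (exact permutation, adjusted p = 0.09048 and 0.2071).

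The spread between libraries of a stage was itself large for these genes and ran in a shared order. The coefficient of variation at E9.5 was 43.1% for Hoxa2, 87.3% for Hoxb1, 100.5% for Hoxb2, 102.5% for Hoxb3 and 121.7% for Egr2, beside a median of 10.7% over 15760 genes with a mean of at least 10 counts. At P60 the spread of Egr2 was 18.4%, close to the median of 17.9%. All 5 members ran from library 1 to library 3 to library 2, highest to lowest, at E9.5, an order held by 19.7% of all genes tested. At E14.5 the 4 detected members ran from library 2 to library 3 to library 1, an order held by 22.3% of genes. Both orders together were found for 4 of the 5 members and 2.27% of genes. These orders were noticed in the values of the members, and no test was made of them.

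Other regional markers were set beside this spread. At E9.5 library 1 was the highest for 7 of 7 heart and muscle markers, 6 of 7 surface ectoderm and endoderm markers and 4 of 8 neural crest and arch markers. Library 2, the lowest for every member, was also the lowest for 7 of 7 surface ectoderm and endoderm markers (summed 297.9, 197.3 and 211.3 CPM in libraries 1, 2 and 3) and for 6 of 8 neural crest and arch markers (270.7, 247.7 and 299.2 CPM). It was the lowest for 3 of 7 heart and muscle markers and the highest for 5 of 6 forebrain and midbrain references (summed 332.4 CPM, against 271.5 and 289.1 in libraries 1 and 3). The heart and muscle sum was close to equal in libraries 2 and 3 (5.94 and 6.37 CPM), between which Hoxa2 differed from 2.79 to 6.49 CPM and Hoxb2 from 0.197 to 1.503 CPM. Brainstem, segmentation and cerebellum lists were counted too, over genes with at least 10 reads at E9.5. Library 1 was the highest for 5 of 6 brainstem neuron markers, 5 of 6 segmentation regulators (described below) and 3 of 3 cerebellum markers. Library 2 was the lowest for 4 of 6, 3 of 6 and 2 of 3 of them. The brainstem sum was 67.55, 52.29 and 51.04 CPM in libraries 1, 2 and 3. Slc6a2 alone supplied 11.67, 0.0656 and 0.0640 CPM of these sums. Lmx1b, the largest part, supplied 37.57, 43.96 and 36.52 CPM and was highest in library 2. The part of these tissues and regions in the levels of the members was not tested.

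At E14.5 library 1, which had no read of Hoxa2, Hoxb2 or Hoxb3, was the lowest for 10 of 10 brainstem neuron markers. Of these, Tph2 of serotonin neurons had 0.154 CPM in library 1 and 3.09 and 2.52 CPM in libraries 2 and 3. Slc6a5 of glycinergic neurons had 0.0922, 3.59 and 1.24 CPM, and Lbx1, of dorsal hindbrain and spinal interneurons, had 0, 3.65 and 1.43 CPM. The forebrain and midbrain sum was 374.6, 365.7 and 369.7 CPM in the same libraries. The part of the tissue taken in these differences was not tested.

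**Figure D3:**
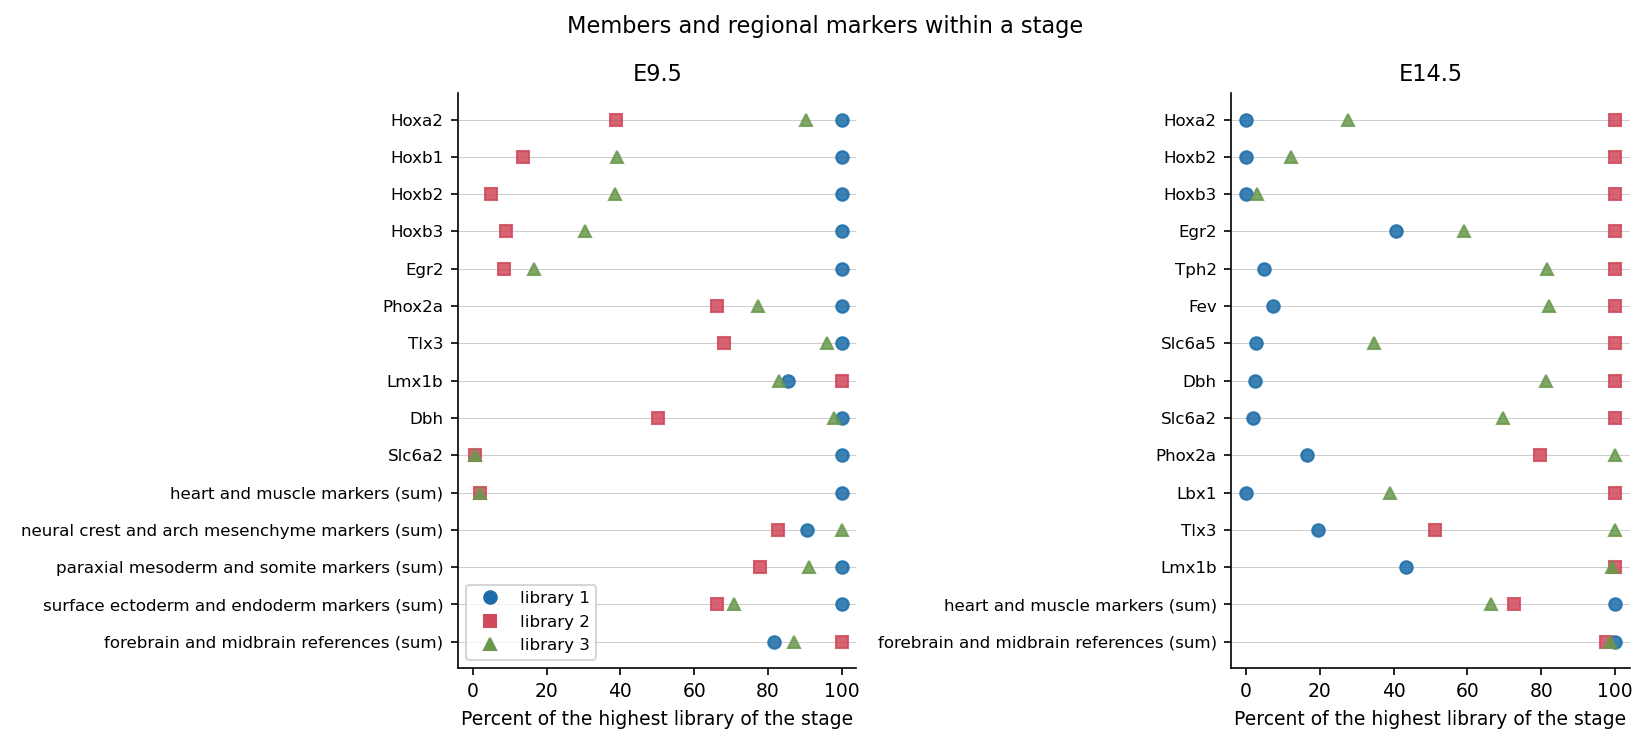
Level of each detected member, of brainstem neuron markers with at least 10 reads at the stage, and of summed marker lists, as percent of the highest library of E9.5 (left) and E14.5 (right). At E9.5 the members, most of the brainstem markers drawn and the heart and muscle sum peak in library 1. At E14.5 library 1 is the lowest for the members and for the brainstem markers drawn. The forebrain and midbrain sums there are 365.7 to 374.6 CPM in the 3 libraries.

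Among all 39 Hox genes, the reads at E9.5 lay at the anterior end of the clusters. Paralog groups 1 to 3, the 3′ genes with anterior limits in the hindbrain, held 1314 of 1403 Hox reads (93.7%), and the 4 Hox members alone held 1211 (86.3%). Group 4 held 25 reads and groups 5 to 13, which pattern the trunk, held 64 (4.56%). At E14.5 there were 241 Hox reads, of which 177 (73.4%) were in groups 1 to 3 and 102 (42.3%) in the members, and at P60 60 Hox reads, of which the members held 1 (1.67%). The E14.5 share rested on library 2, in which the members held 89 of 152 Hox reads, against 0 of 23 and 13 of 66 in libraries 1 and 3. Without it they held 14.6%, and groups 1 to 3 held 57.3%. These shares pool 3 libraries and cover reads, not cells.

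Of the 39 genes, 14 had at least 10 reads in all libraries together and 6 had none. Hoxa3, like Hoxb3, had most of its reads in library 1 of E9.5 and library 2 of E14.5, with 47, 1 and 1 reads at the first stage and 0, 29 and 3 at the second. Hoxd1 differed from the members in having 31 reads in library 3 of E14.5, none in the other E14.5 libraries, and 8, 10 and 2 reads at P60. Others were Hoxb4 (28 reads), Hoxd3 (18), Hoxd8 (17), Hoxc4 (13), Hoxd13 (13), Hoxa11 (11) and Hoxb8 (11). Outside the members no Hox gene passed the filter for testing.

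**Figure D4:**
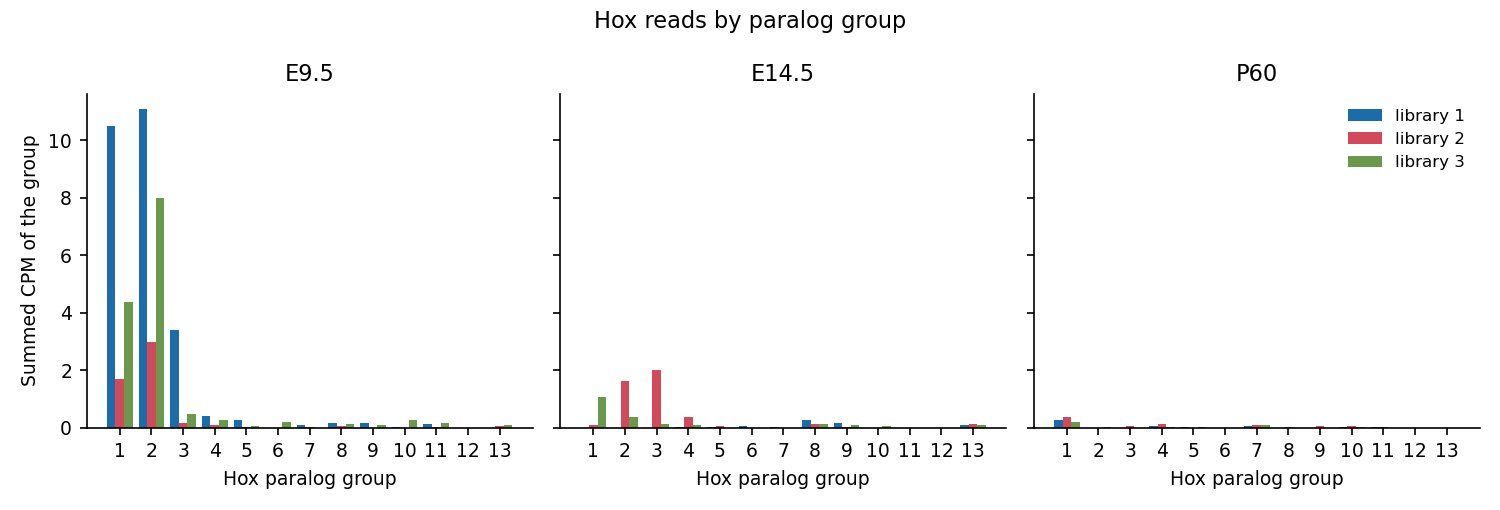
Summed CPM of the Hox genes of each paralog group in the 3 libraries of each stage. At E9.5 groups 1 and 2 are the tallest in every library (10.5, 1.71 and 4.38 CPM, and 11.1, 2.98 and 7.996 CPM in libraries 1, 2 and 3), and groups 4 to 13 reach at most 0.425 CPM in any library.

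The noncoding RNAs of the clusters were counted next, 2 of 9 being abundant enough to test. Hoxaas2, transcribed from the strand opposite Hoxa2 and beside it without overlap, had 241, 74 and 173 reads at E9.5, followed by 0, 31 and 3 reads at E14.5 and no read in the adult. From E9.5 to E14.5 it fell by 4.03 ± 0.9 on the log2 scale (SE; edgeR adjusted p = 0.0038). Hoxb3os, the antisense gene that overlaps Hoxb2 and Hoxb3, had 129, 12 and 52 reads at E9.5, followed by 0, 6 and 2 reads at E14.5 and none later, and fell by 4.72 ± 1.03 (SE; edgeR adjusted p = 0.0032). The reads of Hoxb2, Hoxb3 and Hoxb3os together were 293, 22 and 113 for E9.5, then 0, 57 and 5 for E14.5, and 0, 0 and 1 for P60. This sum kept the order of libraries of Hoxb2. It does not depend on how the authors' counting divided shared reads among these 3 genes, unless shared reads were dropped or counted for more than 1 gene. Which rule was used is not known.

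The genes whose 9 values ran closest to each member were found by the root mean square difference of log2 CPM after removing each gene's mean, over 15253 named genes. Closest to Hoxa2 were Hoxaas2 (0.39), Tbx20 (0.64), Phox2a (0.79), Tlx1 (0.83) and Wnt1 (0.9). Closest to Hoxb1 were Barx1 (0.46), Foxe1 (0.57), Hand2 (0.58), Tmem54 (0.6) and Grhl2 (0.64). Hoxb2 lay nearest to Hoxb3os (0.52), Tlx1 (0.81), Myocd (0.94), Tbx20 (0.96) and Tbx5 (1.03), and Hoxb3 to Art1 (0.96), Tlx1 (1.03), Hoxb3os (1.09), Kcne1 (1.11) and Tgm1 (1.12).

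Egr2 lay nearest to Hspb2 (0.44), Serpinb6b (0.5), Sgca (0.54), Rab20 (0.55) and Scin (0.56). None of these 5 was among the nearest genes of a Hox member. Between members the closest pair was Hoxb2 and Hoxb3 (0.72) and the farthest Hoxa2 and Egr2 (3.3). The 9 points are 3 libraries of each of 3 stages, and they share the library differences described above.

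The segmentation regulators (among them Gbx2, Fgf3, Fgf8, Irx3 and Cdx1) did not move as 1 group. From E9.5 to E14.5, 2 of 7 were higher and 3 lower, with a median log2 change of 0.06, and from E14.5 to P60, 1 was higher and 5 lower, with a median of -1.36. Fgf8, the signal of the midbrain-hindbrain boundary, fell by 4.77 ± 0.32 and then by a further 4.56 ± 0.61 (log2, SE; edgeR adjusted p = 3.2e-07 and 4.7e-05). Cdx1, a caudal homeobox gene that responds to retinoic acid, fell by 4.57 ± 0.75 in the first step (edgeR adjusted p = 0.0003), and Irx3 fell by 1.71 ± 0.2 and then by 3.14 ± 0.22 (2.3e-05 and 4e-07). Gbx2, which opposes Otx2 at that boundary, rose by 1.39 ± 0.25 in the first step (edgeR adjusted p = 0.00053). Fgf3 fell by 2.45 ± 0.34 in the second (edgeR adjusted p = 5.8e-05).

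Of 13 retinoic acid genes, 2 were higher and 7 lower at E14.5 than at E9.5, with a median log2 change of -0.89. In the second step 3 were higher and 8 lower, with a median of -0.73. The degrading enzymes Cyp26c1 and Cyp26a1, which clear retinoic acid from the anterior hindbrain, fell by 10.14 ± 0.5 and fell by 7.13 ± 0.46 respectively (log2, SE; edgeR adjusted p = 4.5e-08 and 2.8e-07). Crabp1, a retinoic acid binding protein of hindbrain and neural crest, fell by 4.8 ± 0.31 and then by 2.72 ± 0.3 (edgeR adjusted p = 2.8e-07 and 1.1e-05). The synthesising enzyme Aldh1a2 rose by 2.82 ± 0.21 in the first step (edgeR adjusted p = 8.4e-07) and Aldh1a1 rose by 5.57 ± 0.31 in the second (8.1e-08). Cyp26b1 fell by 2.89 ± 0.59 and Aldh1a3 by 2.5 ± 0.31 in the second step (edgeR adjusted p = 0.00099 and 2.8e-05).

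The Hox cofactors of the Pbx, Meis and Pknox families are the partners with which Hox proteins bind DNA. In the first step 6 of 9 were higher and 3 lower, with a median log2 change of 0.91, where 3 of the 4 Hox members fell. Meis2 and Meis3 rose by 1.45 ± 0.22 and 1.15 ± 0.14 (log2, SE; edgeR adjusted p = 0.00018 and 2.7e-05), and Pbx2 fell by 1.41 ± 0.14 (5.3e-06). In the second step 0 were higher and 8 lower, with a median of -2.39, led by Meis1 (-3.8 ± 0.27), Pbx3 (-3.71 ± 0.22) and Meis2 (-2.89 ± 0.23; edgeR adjusted p at most 1e-06 for these 3). The summed level of the 9 genes was 807.8 to 858.9 CPM at E9.5, 1156 to 1273 at E14.5 and 197.1 to 298.0 at P60.

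Described targets of the members and genes of the rhombomere boundaries were also counted. Of 12, 6 were higher and 4 lower at E14.5 (median log2 change 0.6), and 1 was higher and 9 lower at P60 against E14.5 (median -1.71). Epha4, the ephrin receptor that Egr2 activates in the third and the fifth rhombomere, rose by 1.41 ± 0.2 between the embryonic stages (log2, SE; edgeR adjusted p = 0.00011). Gata3, which is expressed downstream of Hoxb1 in the fourth rhombomere, rose by 2.64 ± 0.52 and then fell by 4.55 ± 0.58 (edgeR adjusted p = 0.001 and 3.5e-05). Nab1, a corepressor of Egr proteins, rose by 1.3 ± 0.15 and Epha2 fell by 1.06 ± 0.18 in the first step (edgeR adjusted p = 2.3e-05 and 0.00036). In the second, Ephb2 fell by 4.28 ± 0.28 and the Egr corepressor Nab2 rose by 1.98 ± 0.18 (edgeR adjusted p = 2e-07 and 2.7e-06). All of these genes are also expressed outside the hindbrain or outside the rhombomere domains of the members.

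The rise of Egr2 at P60 was set beside the rest of its family and other immediate early genes, which neurons induce rapidly on activity. Of the 10 listed, 9 were higher and 1 lower at P60 than at E14.5, with a median log2 change of 3.5. Egr4, Egr1 and Egr3 rose by 7.0 ± 0.45, 4.3 ± 0.31 and 3.89 ± 0.31 (log2, SE; edgeR adjusted p = 1.9e-07, 4.7e-07 and 1e-06), beside 2.1 ± 0.74 for Egr2 (differences between genes were not tested), and the phosphatase gene Dusp1 fell by 0.82 ± 0.13 (0.0002). Egr1 had 73.4, 129.5 and 56.5 CPM at P60, and library 2 was also the highest for Egr2. In the first step, 4 of the 10 were higher and 0 lower, among them Npas4 (4.67 ± 0.43), Egr3 (3.23 ± 0.45) and Arc (1.91 ± 0.26; edgeR adjusted p at most 9.2e-05 for these 3).

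**Figure D5:**
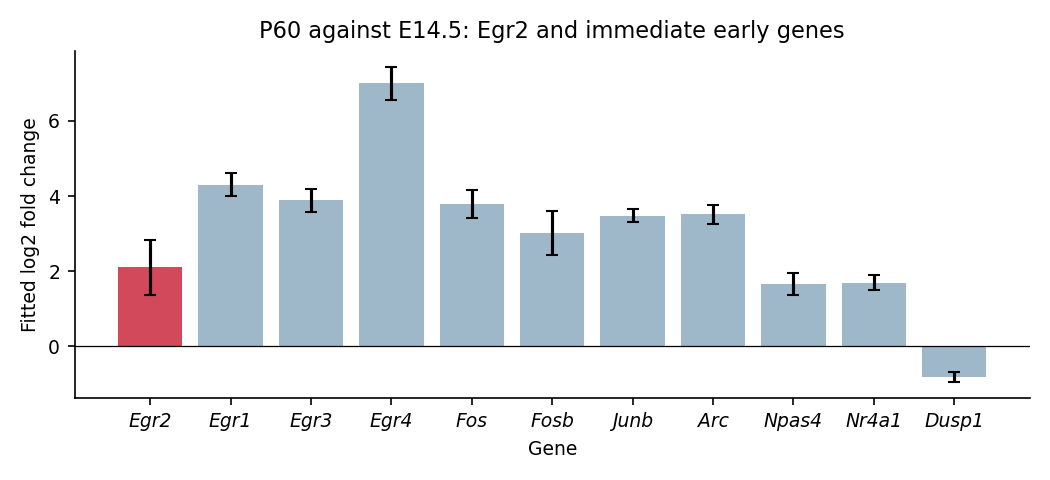
Fitted log2 fold change at P60 against E14.5 for Egr2 (red) and the 10 listed Egr family and immediate early genes (grey-blue), with the SE as bars. Egr2 rises by 2.1, the 3 other Egr genes by 3.89 to 7.0, and Dusp1 alone lies below 0.

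Markers of other cell types were counted beside this rise. Of 7 tested markers of myelinating Schwann cells, in which Egr2 drives myelination, 0 were higher and 6 lower at P60 than at E14.5, and the list summed to 123.2 to 139.6 CPM at E14.5 and 37.2 to 62.9 CPM at P60. Pmp2, a myelin protein gene of these cells, had 0, 1 and 0 reads at P60. Of 6 microglia and macrophage markers, 5 were higher and 1 lower, with sums of 52.1 to 66.4 CPM at E14.5 and 251.7 to 286.2 CPM at P60. Of 6 tested heart and muscle markers 4 were higher and 0 lower, with sums of 2.80 to 4.21 and 51.4 to 73.0 CPM. The P60 sum was carried by Myl4, Tnni1, Tnnc1 and Tnnt2. The others of the list were near 0 there, with 3, 0 and 0 reads of Actc1, 0, 1 and 1 of Myl7 and none of Nkx2-5. The part of the microglial, muscle and immediate early genes in the level of Egr2 was not tested.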

How the data were processed

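Poly(A)-primed, full-length, PCR-amplified cDNA of 9 mouse libraries was sequenced. The deposited table holds raw counts per gene identifier. The submitters' processing notes name Trimmomatic 0.36, STAR 2.5.2b and the mm10 build. How reads were counted per gene, against which annotation and with which strand rule, is not given in the sources used here. Of 45706 identifiers, 45143 matched GENCODE M21, the source of symbols, coordinates and exon lengths.

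The members, gene lists and tests were chosen with earlier results of these data known. All 9 libraries were fitted together in edgeR 4.0.16 (R 4.3.3; filterByExpr on stage, TMM, robust quasi-likelihood fit, no covariate but stage), with 3 two-sided contrasts, Benjamini-Hochberg adjustment over the 17971 genes tested and a threshold of 0.05. The biological coefficient of variation was 19.9%, and the scripts were tested on simulated counts. CPM and RPKM use raw library totals. Counting intervals are 95% exact intervals on reads pooled over a stage, and a count of 0 is given a limit of 3 counts, over the pooled stage for fold bounds. Both cover counting error only, since PCR copies were not marked. Within-library ratios add 0.5 to each count and were compared across stages by exact permutation of an F statistic. Nearest patterns used a prior count of 2 and left out predicted and clone-named genes.

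All members are named, with every Hox gene of at least 10 reads. From the cluster RNA, segmentation, retinoic acid, cofactor, target and immediate early lists, up to 3 called genes of the commoner direction and 1 of the opposite one were named per step, largest fold first, and every member of these lists was counted. The library values of Egr1 and the marker genes named were chosen after their values were seen. Some genes that this rule named are not reported here. The promoter table gave no window for Hoxb2 and Hoxb3.

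Replicate numbers recur in each stage. Deviations from the stage mean correlated by 0.37, 0.141 and 0.209 between same-numbered E9.5 and E14.5 libraries. Same-numbered values were -0.1 to 0.114 for E9.5 with P60 and -0.224 to 0.337 for E14.5 with P60. Differently numbered embryonic libraries reached similar values, 0.202 for E9.5 library 3 with E14.5 library 2 and 0.185 for E9.5 library 2 with E14.5 library 3. The other differently numbered embryonic pairs, each with a library 1, gave -0.29 to -0.224. These values do not show whether the numbers pair libraries, and the labels do not say that they do. Alternatives were other scalings, filters and tools (DESeq2 1.42.0), a replicate block, each library left out, and library 1 of both embryonic stages left out together, which was chosen after seeing the data.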

Additional observations from a re-analysis of the deposited data

How the results depend on the processing

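Results on the members were computed again under each alternative. The falls of Hoxa2 and Hoxb1 from E9.5 to either later stage, and of Hoxb2 from E9.5 to P60, stayed called in every setting in which they were tested. Hoxb2 at E14.5 against E9.5 became -3.3 (edgeR adjusted p = 0.055) with no filter, -3.49 with DESeq2 (adjusted p = 0.068) and -1.63 (edgeR adjusted p = 0.19) without library 1 of both embryonic stages. Leaving out those 2 libraries gave log2 changes of 0.78 for Hoxb3 and 0.61 for Egr2 between the embryonic stages, -7.05 for Hoxb3 at P60 against E14.5 (edgeR adjusted p = 0.037), and -6.27 for Hoxb3 (0.073) and 2.43 for Egr2 (0.0006) at P60 against E9.5. With no filter, Hoxa2 at P60 against E14.5 was -6.91 (edgeR adjusted p = 0.07) and Hoxb3 at P60 against E9.5 was -7.45 (0.096), and DESeq2 gave -5.76 for Hoxb3 at P60 against E14.5 (adjusted p = 0.031). The causes of these shifts were not tested.

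With the replicate number as a block, the calls of the members between E9.5 and E14.5 did not change. Under the block, Hoxa2 at P60 against E14.5 became -6.84 (edgeR adjusted p = 0.064), Hoxb3 at P60 against E9.5 -7.63 (0.056) and the cluster RNA Hoxaas2 at P60 against E14.5 -6.35 (0.12), with no other call of a named gene changed.

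The number of members called lower at P60 against E14.5 was 1, and became 0 with no filter or with the block, 0 with only those 2 stages fitted, where Hoxa2 was not tested, and 2 with DESeq2 or without library 1 of both embryonic stages. At P60 against E9.5 it was 4, and became 2 with a filter of 1 CPM in 3 libraries or with only those stages fitted, where other members were not tested. The number called higher there became 1 without library 1 of both embryonic stages. Leaving out each library in turn gave 2 to 4 members lower at E14.5 against E9.5, 1 to 2 lower and 0 to 1 higher at P60 against E14.5, and 3 to 4 lower and 0 to 1 higher at P60 against E9.5. Log2 changes over these ranged from -5.2 to -3.02 (Hoxa2), -10.86 to -9.43 (Hoxb1), -5.82 to -2.19 (Hoxb2), -5.22 to 0.21 (Hoxb3) and -1.89 to 0.36 (Egr2) between the embryonic stages. They ranged from -7.47 to -5.28 (Hoxa2), -7.02 to -2.26 (Hoxb3), 1.85 to 2.5 (Egr2) and -6.98 to -3.63 (Hoxaas2) at P60 against E14.5, and from -8.01 to -6.28 (Hoxb3) and 0.2 to 2.43 (Egr2) at P60 against E9.5. The E9.5 minus E14.5 difference of the mean log2 ratio ranged from 2.96 to 5.53 for Hoxb1 to Hoxb2 and from -4.01 to -2.1 for Egr2 to Hoxb2. Scaling by library totals moved the median of all genes to 0.117 and -0.199 in the consecutive steps, and upper quartile scaling moved it to 0.204 for P60 against E9.5, small beside the changes of the members. Leaving out a later library in which a gene had no read lowers its bound by 1.44 to 1.535 times, because fewer reads are searched. All 5 members had under 100 reads in 7 to 9 of the 9 libraries.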
